A study of Mus musculus with 36 samples.

Results

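The genes named MCM here encode the motor of the replicative helicase, a relative of its subunits and an initiation factor. A fixed list gave 8 of them, Mcm2, Mcm3, Mcm4, Mcm5, Mcm6, Mcm7, Mcm8 and Mcm10. They are among 22350 protein-coding genes on the 19 mouse autosomes and X. Each gene was placed by its start in maps of replication timing (RT) domains. No timing filter picked the genes, but the list was chosen with earlier results of these data known. Repli-seq gave the RT values, from sequencing of BrdU-labelled new DNA in cells sorted from early and from late S phase. There were 36 libraries in 7 groups, and the deposited maps cover CH12 cells infected with a lentivirus carrying shLacZ, the control hairpin, and WT primary B cells from spleen after activation, with 4 libraries behind each map. CH12 is a mouse B cell lymphoma line, grown here with IL4, CD40 and TGF beta stimulation, and infected cells were selected with puromycin. The methods state that mice of both sexes were used without distinction, and the ages of those that gave primary B cells were not given in the sources used here. A further map carries the name of mouse embryonic fibroblasts (MEFs), but the labels tie it to no library of the series, so it is called the MEF-named map. The other 5 groups, among them the cells in which Mcm6 itself was depleted by shMcm6, were not analysed here.

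Mcm2 to Mcm7 proteins form a hexameric ring that is loaded onto DNA at replication origins in G1 phase and, joined by Cdc45 and the GINS proteins, unwinds the double helix at the fork in S phase. Mcm8 is a relative of the ring subunits that acts with Mcm9 in homologous recombination. Mcm10 is not a ring subunit but an initiation factor that binds the assembled helicase and helps to activate it. Transcription of many MCM genes is known to be driven by E2F factors as cells approach S phase. RT is the order in which parts of the genome are copied, and early copying is generally found in gene-rich, transcribed chromatin.

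Each map assigns 20 kb bins to an early (E), middle (M) or late (L) state and joins neighbouring bins of a state into domains. The libraries of a condition were merged before states were called, so there is 1 map per condition, no replicate error for any value, and no test between conditions. A map holds no read counts and no RT values, so the depth behind a state is unknown. Domain edges were set on values smoothed over 300 kb. As a check of the labels, 9 B cell marker genes started in E in 6 cases in CH12 cells, in 9 cases in primary B cells and in 6 cases in the MEF-named map. Of 10 fibroblast marker genes, 3, 3 and 7 started in E in the same order, and 6, 2 and 0 in L. Timing of a marker gene is not its expression, so these counts describe the maps and do not identify the cells.

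The MCM genes lay in early or middle domains, and in late domains in 0 of 24 readings. Over 8 genes and 3 maps, 10 readings were E and 14 were M. Mcm2 and Mcm10 were E in all 3 maps. Mcm3, Mcm4 and Mcm5 were M in all 3 maps. Mcm6 was E in CH12 and primary B cells and M in the MEF-named map. Mcm7 and Mcm8 were E in primary B cells and M in CH12 cells and in the MEF-named map. In no map did the 6 genes encoding the hexamer all share a state, and no share for other sets of 6 genes was computed.

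**Figure D1:**
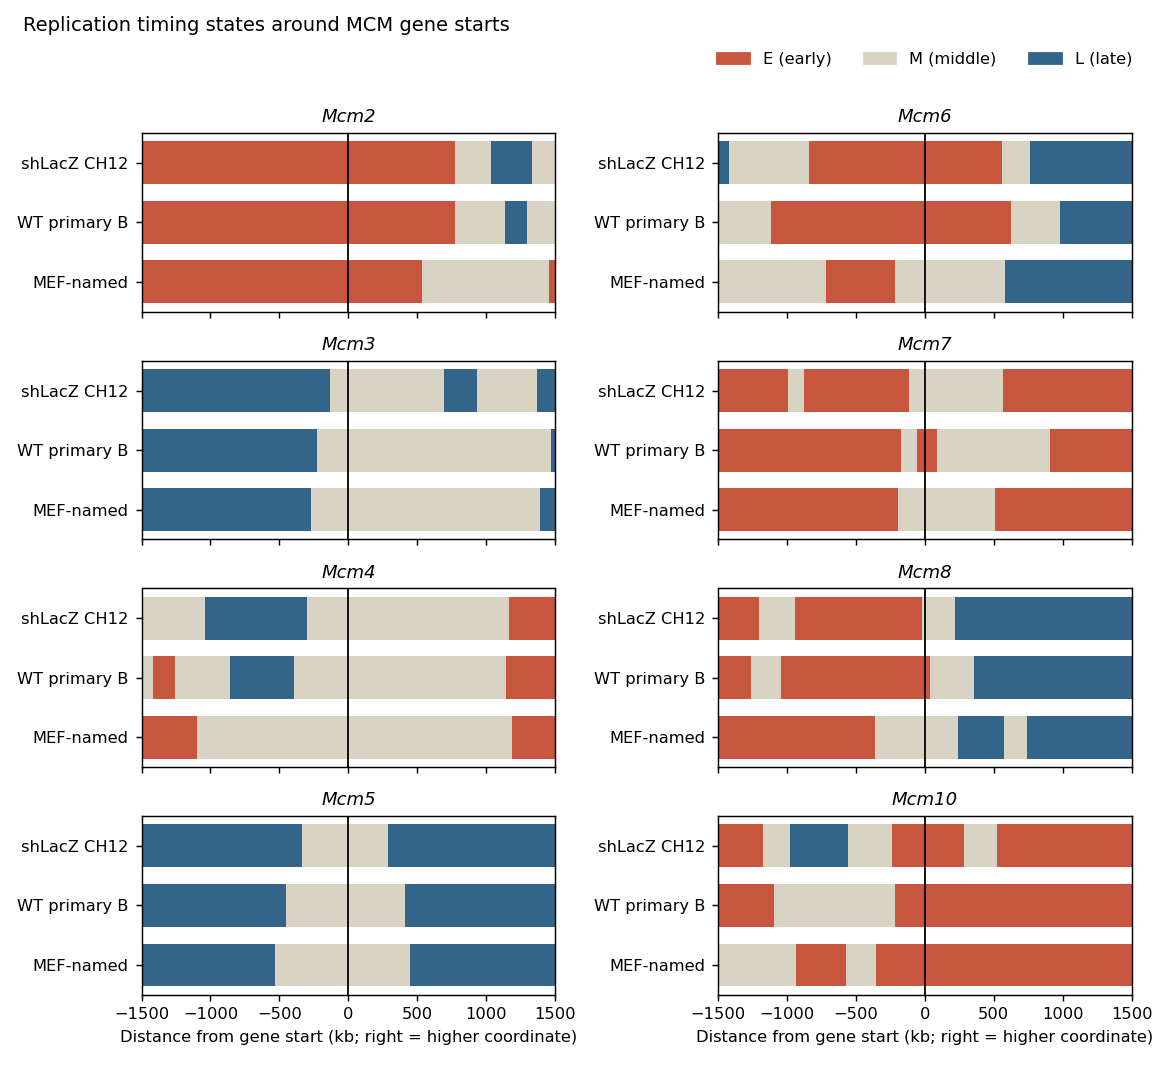
RT states around the start of each MCM gene in the shLacZ CH12, WT primary B and MEF-named maps, with distance from the gene start in kb on the x axis, higher coordinates to the right, and the start marked by a vertical line. Colours are E (red), M (beige) and L (blue), and Mcm2 and Mcm10 sit in E and Mcm3, Mcm4 and Mcm5 in M in all 3 maps, while Mcm6, Mcm7 and Mcm8 change state.

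In CH12 cells 3 of the 8 MCM genes started in E and 5 in M, with 0 in L, beside 50.6%, 27.2% and 22.1% of all protein-coding genes. In primary B cells 5 started in E and 3 in M, with 0 in L, beside 58.0%, 29.1% and 12.9% of all genes. In the MEF-named map 2 started in E and 6 in M, with 0 in L, beside 58.6%, 29.6% and 11.9%. The share of MCM genes in M was thus above that of all genes in all 3 maps, but with 8 genes each gene moves a share by 12.5 percentage points. All 8 MCM genes were outside L in all 3 maps, as were 76.0% of all genes. Among all genes, E in every map was the most frequent pattern, at 43.9% (2 of 8 MCM genes), and M in every map came next, at 10.8% (3 of 8 MCM genes). The pattern of Mcm6, E in both B cell maps and M in the MEF-named map, was held by 4.47% of genes. That of Mcm7 and Mcm8, M in CH12 cells, E in primary B cells and M in the MEF-named map, was held by 3.4%.

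**Figure D2:**
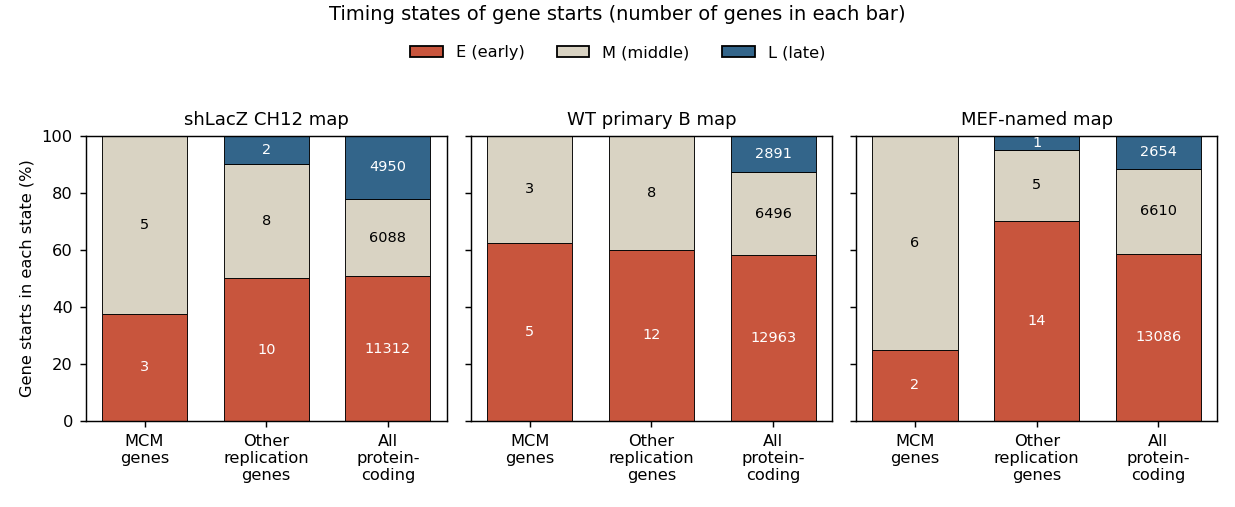
Percentage of gene starts in the E, M and L states (y axis) in each of the 3 maps for the 8 MCM genes, 20 other replication genes and all 22350 protein-coding genes, with the number of genes written in each bar segment. The L segment is absent from the MCM bars in all 3 maps, and M makes up 5, 3 and 6 of the 8 MCM genes.

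Between maps, 6 of the 8 MCM genes had the same state in CH12 and primary B cells, beside 78.5% of all genes. The CH12 and MEF-named maps gave 7 of 8 the same state, beside 70.1%, and the primary B and MEF-named maps 5 of 8, beside 75.0%. Mcm7 and Mcm8 were both M in CH12 cells and E in primary B cells, a change shown by 9.05% of all genes. An earlier state in primary B than in CH12 cells was held by these 2 MCM genes and by 18.8% of all genes. A later state was held by 0 MCM genes and by 2.75% of all genes, so the direction is that of the maps as a whole. E covered 599640565 bases in the CH12 map and 737680874 in the primary B map. The paper, by contrast, describes relatively fewer early domains in WT primary B than in shLacZ CH12 cells. The RT value that parts E from M is not held by the maps and may differ between them. A change of state therefore need not be a change of RT. The pairs of maps compared here share maps, so they are not separate counts. No MCM gene body crossed a domain edge, so the state at each gene's middle and end was that at its start in every map. These genes are 7.84 to 28.1 kb long, in domains of 140 kb or more. The share of all gene bodies that cross an edge was not computed.

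Mcm2 lay deepest in early territory. The gene, on the minus strand of chromosome 6 with its start at 88848774 (mm9) and a length of 15.3 kb, was covered by an E domain of 3380 kb in CH12 cells (chr6:86240001-89620000), of 3420 kb in primary B cells (chr6:86200001-89620000) and of 3580 kb in the MEF-named map (chr6:85800001-89380000). Of the E domains of the same maps, 94.6%, 94.8% and 91.9% were shorter. The gene start was 771.2 kb from the nearest edge in both B cell maps and 531.2 kb in the MEF-named map. All 50 bins within 500 kb on each side were E in each map. The CH12 and primary B domains shared 98.8% of their joint length, the highest value among the MCM genes.

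Mcm3, Mcm4 and Mcm5 shared the M state in all maps but differed in what surrounded it. Mcm3 (chromosome 1, minus strand, start 20810359, length 17.3 kb) sat near the lower edge of an M domain with L on both sides. Its domain measured 820 kb in CH12 cells (chr1:20680001-21500000), 1700 kb in primary B cells (chr1:20580001-22280000) and 1660 kb in the MEF-named map (chr1:20540001-22200000). The L domain below it began 130.4 kb from the gene start in CH12 cells, 230.4 kb away in primary B cells and 270.4 kb away in the MEF-named map, so Mcm3 was nearest to late territory in CH12 cells. No E bin occurred within 500 kb in any map, and the nearest E domain was 3990.4, 3930.4 and 10770.4 kb away in the same order.

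Mcm4 (chromosome 16, minus strand, start 15637493, length 13.5 kb) encodes a ring subunit that is a target of the kinase Cdc7. It lay in M domains of 1460 kb in CH12 cells (chr16:15340001-16800000), 1540 kb in primary B cells (chr16:15240001-16780000) and 2280 kb in the MEF-named map (chr16:14540001-16820000). These domains were long for their state, with 94.3%, 94.4% and 91.6% of M domains shorter. In both B cell maps L lay below the domain, at 297.5 kb in CH12 cells and 397.5 kb in primary B cells, and E lay above it. The MEF-named map had E on both sides, and its nearest L was 3037.5 kb away. Within 500 kb of Mcm4, 10 of 50 bins were L in CH12 cells, 5 in primary B cells and 0 in the MEF-named map.

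Mcm5 (chromosome 8, plus strand, start 77633427, length 18.9 kb) stood close to the middle of an M domain enclosed by L in all 3 maps. The domain was 620 kb long in CH12 cells (chr8:77300001-77920000), 860 kb in primary B cells (chr8:77180001-78040000) and 980 kb in the MEF-named map (chr8:77100001-78080000), and the domain of each B cell map lay wholly within the MEF-named one. The nearest edge was 286.6, 406.6 and 446.6 kb from the gene start. The nearest E domain lay 2553.4, 2353.4 and 2273.4 kb away, farther than the whole domain is long in each map. Mcm5 and Mcm3 were thus the members enclosed by late domains on both sides in every map.

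Mcm6, the subunit that the study depleted in other groups, was the ring gene that set both B cell maps apart from the MEF-named map. It is on the minus strand of chromosome 1 (start 130256233, length 28.1 kb). The covering domain was E over 1400 kb in CH12 cells (chr1:129420001-130820000) and over 1740 kb in primary B cells (chr1:129140001-130880000), and M over 800 kb in the MEF-named map (chr1:130040001-130840000). The gene start was 563.8 and 623.8 kb inside the E domains, and all 50 bins within 500 kb were E in both B cell maps. In the MEF-named map 14 of these bins were E and 36 were M, and the nearest E bin was 216.2 kb away. The upper edges of the 3 domains were within 60 kb of each other, at 130820000, 130880000 and 130840000. The CH12 E domain and the MEF-named M domain overlapped over 780 kb, from 216.2 kb below the gene start to 563.8 kb above it. Below that stretch the MEF-named map was E for 500 kb.

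Mcm7 (chromosome 5, minus strand, start 138613650, length 7.84 kb) was M in a dip between early domains. In CH12 cells the M domain was 680 kb long (chr5:138500001-139180000) and in the MEF-named map 700 kb (chr5:138420001-139120000), with E on both sides in each. In primary B cells a 140 kb E domain (chr5:138560001-138700000) covered the gene, with M on both sides. That domain has 7 bins and is shorter than the 300 kb smoothing span, and 1.06% of the E domains of the primary B map were shorter. The gene start was 53.6 kb from its edge, compared with 113.6 kb in CH12 cells and 193.6 kb in the MEF-named map. Within 500 kb, 19, 23 and 15 of 50 bins were E in the CH12, primary B and MEF-named maps, and the rest were M. Within 250 kb, 7, 11 and 3 of 25 bins were E in the same order. The nearest L domain was 3306.4, 4393.6 and 3326.4 kb away.

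Mcm8 (chromosome 2, plus strand, start 132641877, length 28.1 kb) lay where an early domain gives way to a late one. In CH12 cells it started 21.9 kb inside a 240 kb M domain (chr2:132620001-132860000), with E below and L above. In primary B cells it started 38.1 kb inside the upper edge of a 1080 kb E domain (chr2:131600001-132680000), followed by M. In the MEF-named map it lay 238.1 kb from the edge of a 600 kb M domain (chr2:132280001-132880000), again with E below and L above. The CH12 M domain and the primary B E domain overlap by 60 kb, that is 3 bins, and the gene lies in that overlap. This displacement is smaller than the 300 kb smoothing span, and its error is not known from a merged map. Late bins within 500 kb numbered 14 in CH12 cells, 7 in primary B cells and 13 in the MEF-named map.

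Mcm10 (chromosome 2, minus strand, start 4933837, length 23.1 kb) was E throughout, in domains of unequal extent. The E domain was 520 kb long in CH12 cells (chr2:4700001-5220000), 2100 kb in primary B cells (chr2:4720001-6820000) and 1920 kb in the MEF-named map (chr2:4580001-6500000). The lower edges of the B cell domains were 20 kb apart and the upper edges 1600 kb apart, so the 2 domains shared 23.6% of their joint length. The gene start was 233.8, 213.8 and 353.8 kb from the nearest edge. Within 500 kb, 26, 36 and 43 of 50 bins were E in the same order and 0 were L in any map.

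**Figure D3:**
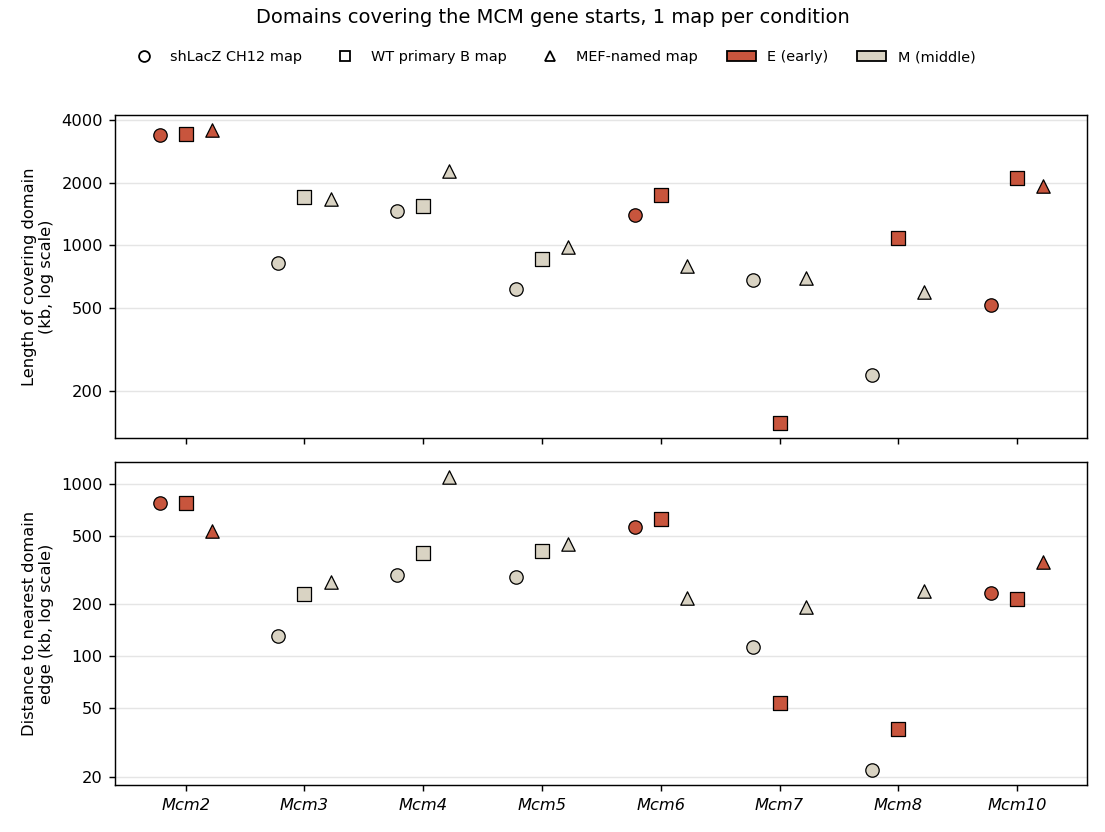
Length of the domain covering each MCM gene start (upper panel, kb, log scale) and distance from the start to the nearest domain edge (lower panel, kb, log scale), with 1 point per gene and map. Marker shape gives the map and colour the state, E red and M beige, and Mcm2 has the longest domains, Mcm7 the shortest in primary B cells at 140 kb, and Mcm8 the smallest edge distance at 21.9 kb in CH12 cells.

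Over all 8 MCM genes the median length of the covering domain was 750 kb in CH12 cells, 1620 kb in primary B cells and 1320 kb in the MEF-named map, beside 1520, 1480 and 2040 kb over all protein-coding genes. Within M the medians were 680, 1540 and 890 kb for MCM genes and 660, 740 and 1180 kb for all genes. Within E they were 1400, 1740 and 2750 kb for MCM genes and 2200, 2100 and 2660 kb for all genes. The M value in primary B cells, which rests on Mcm3, Mcm4 and Mcm5, was therefore above the upper quartile of 1260 kb over all genes in M, and the other medians lay within the middle 50% of all genes. The median distance to the nearest edge was 260.2, 314.0 and 312.1 kb for MCM genes and 304.2, 312.8 and 415.0 kb for all genes. By state, only the median edge distance of MCM genes in M in primary B cells, 397.5 kb, lay outside the middle 50% of all genes, which ended at 329.4 kb. In 3 of 24 readings an MCM gene started within 100 kb of an edge. These were Mcm7 in primary B cells and Mcm8 in both B cell maps, the genes whose states differed between those maps. The share of all genes this near an edge was not computed. Lower quartiles of edge distance over all genes were 125.8, 132.9 and 171.6 kb.

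Gene neighbourhoods were mostly sparse. Within 500 kb on each side the number of other protein-coding gene starts was 13 for Mcm2, 9 for Mcm3, 4 for Mcm4, 7 for Mcm5, 7 for Mcm6, 36 for Mcm7, 8 for Mcm8 and 7 for Mcm10. The median of 7.5 compares with 15 over all protein-coding genes, for which the middle 50% ran from 8 to 27. Mcm7 was the exception, with more neighbours than 85.3% of all genes, although it was M in CH12 cells and in the MEF-named map. Mcm6 and Mcm10, both E in CH12 cells, had as few neighbours as Mcm5, which was M. Gene density served to tell E from L in the numbered states, so the higher median of E genes over all genes (21 in E against 11 in M and 9 in L by CH12 state) is no finding.

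GC content of the 20 kb bin holding the start was 52.5% for Mcm2, 44.9% for Mcm3, 43.1% for Mcm4, 47.6% for Mcm5, 43.2% for Mcm6, 48.9% for Mcm7, 42.6% for Mcm8 and 46.3% for Mcm10. By CH12 state, the median over all genes was 47.5% for E, 43.5% for M and 40.3% for L. Mcm2 was above the middle 50% of E genes, which ended at 50.4%, and Mcm6 was below it, since it began at 44.7%. Mcm5 and Mcm7 had more GC than the middle 50% of M genes, which ended at 46.0%.

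**Figure D4:**
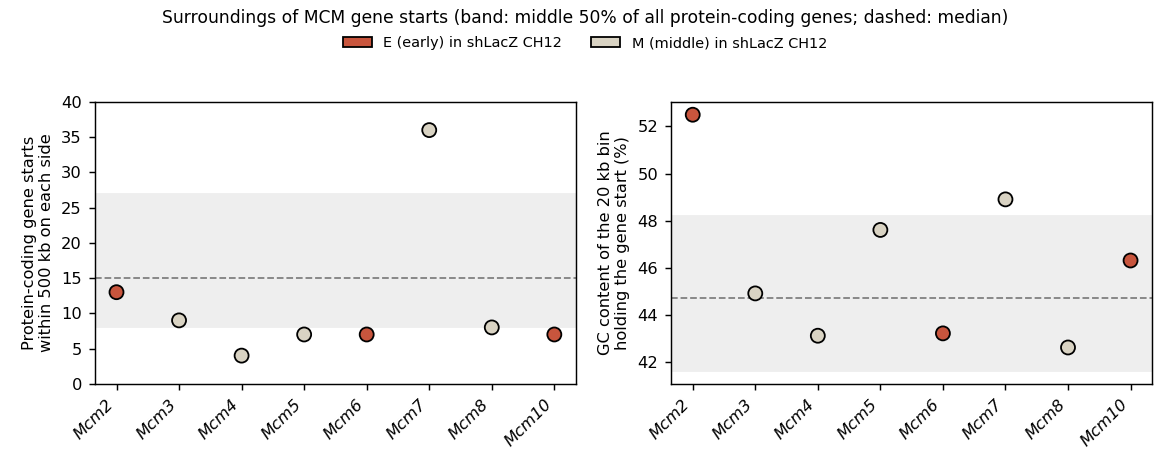
Number of protein-coding gene starts within 500 kb on each side (left) and GC percentage of the 20 kb bin holding the gene start (right) for each MCM gene, coloured by its state in shLacZ CH12 cells (E red, M beige). The grey band is the middle 50% and the dashed line the median of all protein-coding genes, and Mcm7 with 36 neighbours lies above the band on the left while Mcm2 with 52.5% GC is highest on the right.

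The nearest neighbouring genes of each MCM gene had its state in all 3 maps. Their starts lay only 0.09 to 104.42 kb away, and the share of all genes whose nearest neighbours match was not computed. For Mcm4, Mcm7 and Mcm8 the nearest start was within 500 bases. Mcm4 starts 466 bases from Prkdc, which encodes the catalytic subunit of the DNA-dependent protein kinase and runs the other way. Mcm8 starts 86 bases from Trmt6, a subunit of a tRNA methyltransferase, also divergent. The start of Mcm7 and that of Ap4m1, a subunit of an adaptor complex, are 420 bases apart with the 5′ ends of the genes overlapping, so the sequence directly before the annotated start of Mcm7 is an exon of Ap4m1. Other nearest neighbours were Podxl2 and Tpra1 for Mcm2, Il17f and Paqr8 for Mcm3, Ube2v2 on the far side of Mcm4, Hmox1 and Rasd2 for Mcm5, Lct and Dars for Mcm6, Taf6 on the far side of Mcm7, Crls1 on the far side of Mcm8, and Ucma and Optn for Mcm10. The number of other protein-coding genes that shared the domain with an MCM gene in all 3 maps was 50 for Mcm2, 11 for Mcm3, 11 for Mcm4, 5 for Mcm5, 4 for Mcm6, 9 for Mcm7, 2 for Mcm8 and 5 for Mcm10. These genes have the same domain by construction, and nothing on common control follows from it.

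Promoters of the MCM genes were searched because E2F control links several of them to S phase. The 250 bases before each gene start were searched on both strands for the E2F words TTTCCCGC, TTTCGCGC, TTTGCCGC and TTTGGCGC. At least 1 word occurred before 4 of the 8 MCM genes, compared with 2.15% of 22349 protein-coding promoters. These were Mcm3 with 1 word, Mcm4 with 2, Mcm5 with 2 that overlap, and Mcm6 with 3, of which 2 overlap. Each word holds a CpG, so CpG-rich promoters have more room for it. The ratio of observed to expected CpG was 0.421, 0.945, 1.0 and 0.982 in these promoters, beside a median of 0.496 over all. Mcm2, Mcm7, Mcm8 and Mcm10, without a word, had 0.5, 0.266, 0.899 and 0.265. The share of promoters of like CpG content with a word was not computed. A link between the words and the timing state was not tested. All 4 genes with a word were M in the MEF-named map, as were 6 of the 8 MCM genes. The share in M over all genes with a word was not computed. In both B cell maps Mcm6, which had the most, was E, and Mcm3, Mcm4 and Mcm5 were M. Mcm2 and Mcm10, E in all maps, had none in this window. Mcm7 and Mcm8, M in CH12 cells and in the MEF-named map, had none either, but Mcm8 had 1 within 1000 bases. A missing word says only that these letters are not in the window. The promoters that hold a word follow here on the strand of the gene, 5′ to 3′ from mm9, ending at the base before the gene start, with the E2F words or the reverse complement of a word in capitals.
Mcm3, chr1:20810360-20810609, minus strand: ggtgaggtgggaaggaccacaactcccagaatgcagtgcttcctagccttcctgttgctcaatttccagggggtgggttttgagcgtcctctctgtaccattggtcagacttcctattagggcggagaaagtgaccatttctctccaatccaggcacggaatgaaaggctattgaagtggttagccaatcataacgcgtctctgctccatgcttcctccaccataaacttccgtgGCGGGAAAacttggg
Mcm4, chr16:15637494-15637743, minus strand: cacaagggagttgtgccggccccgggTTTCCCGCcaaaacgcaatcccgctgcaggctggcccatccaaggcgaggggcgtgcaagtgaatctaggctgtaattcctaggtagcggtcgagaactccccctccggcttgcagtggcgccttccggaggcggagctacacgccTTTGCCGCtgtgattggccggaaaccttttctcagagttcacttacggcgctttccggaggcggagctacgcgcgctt
Mcm5, chr8:77633177-77633426, plus strand: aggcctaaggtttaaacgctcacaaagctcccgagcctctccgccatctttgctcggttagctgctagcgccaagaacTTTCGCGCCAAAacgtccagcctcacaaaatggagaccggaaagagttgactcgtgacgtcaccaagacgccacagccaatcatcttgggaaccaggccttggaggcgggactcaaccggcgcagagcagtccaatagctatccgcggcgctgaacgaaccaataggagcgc
Mcm6, chr1:130256234-130256483, minus strand: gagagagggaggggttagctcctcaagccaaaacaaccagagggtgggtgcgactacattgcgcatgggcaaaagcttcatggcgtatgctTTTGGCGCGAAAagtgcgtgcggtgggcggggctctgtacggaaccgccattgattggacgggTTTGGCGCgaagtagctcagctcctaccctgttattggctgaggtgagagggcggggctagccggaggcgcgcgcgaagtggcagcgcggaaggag

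In Mcm5 and Mcm6 the overlapping words read into each other from opposite strands and form the capitals of 12 bases. The word of Mcm3 is on the opposite strand and ends 8 bases before the gene start. The words of Mcm4 begin 224 and 78 bases before it. Mcm7 had 0 words before its annotated gene start, but transcript starts 604 and 607 bases further into the gene had 2 each in the 250 bases before them. That region has the same state as the gene start in every map. CCAAT, the motif of the factor NF-Y, occurred on either strand in 7 of 8 MCM promoters, all but Mcm7, and in 35.0% of all promoters. The GC box GGGCGG, a motif of Sp1, occurred in 5 of 8 and in 39.6% of all promoters. The 5 include Mcm7, whose window overlaps an exon of Ap4m1. Of the 3 boxes of Mcm8, those beginning 245 and 120 bases before its start lie beyond the 85 bases that separate it from Trmt6. The short interval that separates Mcm8 from Trmt6 is shown because it lies in the bins that differ between the B cell maps, with a CCAAT and a GC box on the opposite strand but no E2F word.
Mcm8, chr2:132641792-132641876, plus strand: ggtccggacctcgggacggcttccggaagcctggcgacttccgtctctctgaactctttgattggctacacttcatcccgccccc

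The Mcm7 gene also hosts the microRNAs Mir106b, Mir93 and Mir25 on its own strand, at chr5:138606965-138607046, chr5:138606751-138606838 and chr5:138606549-138606632 of mm9. They were M in CH12 cells, E in primary B cells and M in the MEF-named map, as their host was. The mature arms below, 1 from each, are from RefSeq (GRCm38.p6), with the seed, bases 2 to 8, in capitals. They show that miR-106b-5p and miR-93-5p share a seed that miR-25-3p does not have.
mmu-miR-106b-5p: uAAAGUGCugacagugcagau
mmu-miR-93-5p: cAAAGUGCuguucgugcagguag
mmu-miR-25-3p: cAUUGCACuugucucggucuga

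Other genes of the pathway were given from a list of 20, read in the same maps. Of the list, 10, 12 and 14 genes started in E in the CH12, primary B and MEF-named maps, 8, 8 and 5 in M, and 2, 0 and 1 in L. Over all genes the shares in the same order were 50.6%, 58.0% and 58.6% in E and 27.2%, 29.1% and 29.6% in M. Those in L were 22.1%, 12.9% and 11.9%. The partners of the ring, Cdc45 and the 4 GINS genes, were E in 3, 3 and 4 of 5 cases. The loaders, made up of 6 Orc genes, Cdc6 and Cdt1, were E in 5 of 8 cases in each map, and the L readings of the list were those of Orc4 in CH12 cells and of Orc5 in CH12 cells and in the MEF-named map. Regulators and relatives, from the inhibitor Gmnn to Mcm9, were E in 2, 4 and 5 of 7 cases. In all 3 maps 10 of the 20 were E and 4 were M, beside 43.9% and 10.8% of all genes. The other 6 changed state, as 3 of the 8 MCM genes did. The share of all genes that changed state was not computed.

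Between the B cell maps 4 of the 20 listed genes had an earlier state in primary B cells than in CH12 cells and 0 a later one. The shares of all genes were 18.8% and 2.75%, so the count is close to that of all genes. Orc4 and Orc5, subunits of the origin recognition complex, were L in CH12 cells and M in primary B cells. Cdc7, the kinase that phosphorylates the helicase at origins, and Mcmbp, an MCM-binding protein, were M in CH12 cells and E in primary B cells, as Mcm7 and Mcm8 were. Mcmbp started 4.0 kb from a domain edge in CH12 cells. Gins4 and Rif1, the gene of the timing factor that the study knocked out, were M in both B cell maps and E in the MEF-named map, a direction opposite to that of Mcm6, Mcm7 and Mcm8 between primary B cells and that map. Mcm9, the partner of Mcm8, was M in all 3 maps.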

How the data were processed

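Repli-seq libraries of early and late S phase fractions were analysed through the authors' domain maps. Per the labels and the study's methods, reads were trimmed (Trim Galore 0.6.5), aligned to mm9 (BWA 0.7.17), filtered (SAMtools 1.9), and merged over replicates. The methods describe separately thawed vials of CH12 cells as the biological replicates of sequencing experiments and call repeat sorts of a fraction technical, and the labels do not say which of these a replicate number marks. RT, the log2 of early over late reads per 20 kb window (deepTools), was loess-smoothed over 300 kb and segmented by a hidden Markov model into 3 states. The deposited files hold domain starts, ends and state numbers, which are codes and not a measured score. Merging removes replicate spread, and smoothing blurs edges and can hide short domains.

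State numbers carry no names. The state between the others was taken as M, and of the rest the one with more protein-coding gene starts per Mb as E. In CH12 and primary B cells E was 2, M 1 and L 0, and in the MEF-named map E was 0, M 2 and L 1. Map ends matched the lengths of all 20 chromosomes of the NCBIM37 (mm9) genome. Genes came from GENCODE M1, placed by their first base on their own strand. All 8 MCM genes had a state in all maps, and no filter was applied. Named pathway genes are those that changed state or were L, with Mcmdc2 under an older symbol, and others named there as examples or for their link to an MCM gene. The members and lists were chosen with earlier results of these data known. Look-up functions were tested on a made-up map, and 6 of 6 recovered the known values at 500 positions. Mature microRNAs came from RefSeq tables, and a planned comparison of the proteins was not made. The alternatives tried were other gene positions, joined or long domains, other windows, gene sets and E2F words. Searching before other transcript starts was added after seeing the data. Versions were matplotlib 3.10.9, pandas 2.3.3, numpy 2.4.6 and Python 3.11.15.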

Additional observations from a re-analysis of the deposited data

How the results depend on the processing

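The E, M and L counts of MCM genes in each map, and the number with the state of their start, were within 1.5 times of the reported value under the gene middle, the gene end, most of the gene body, domains joined across up to 40 kb and domains of at least 100 kb (60 of 60 values). No other outcome was possible, since no MCM gene body crossed an edge and the shortest covering domain was 140 kb. With Mcm2 to Mcm7 alone, genes in E numbered 3 in primary B cells and 1 in the MEF-named map. Leaving out starts within 100 kb of an edge in either map removed Mcm7 and Mcm8, the genes that differ between the B cell maps, so 6 of 6 genes left had the same state there by construction. The same step left 6 of 7 genes with the same state in the CH12 and MEF-named maps and 5 of 6 in the primary B and MEF-named maps. The median percentage of E bins around MCM gene starts in the MEF-named map was 4 within 250 kb, beside 21 within 500 kb. The median number of neighbouring gene starts was 13.5 within 1 Mb and 18.5 with all gene types, since both settings count more starts. With TTTCGCGC and TTTGGCGC alone, 2 MCM promoters held an E2F word, against 0.761% of all promoters, and within 1000 bases 5 did, against 4.75%. Counting any annotated coding transcript start, 5 MCM genes had a word, Mcm7 included. Of 27 shares of all genes recomputed over all gene types, autosomes or starts beyond 3 Mb, 15 left the Wilson interval of the reported share. That interval is narrow with so many genes, which are no random sample, so small moves also leave it. The E share in CH12 cells was 44.8% over all gene types and 51.8% over autosomes, beside 50.6%. No paired analysis was possible because states were called on pooled replicates, and for that reason no replicate could be left out. Read depth and the RT value behind each state are not held by the maps, so how near a gene was to another state is not known.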
